A study of Mus musculus with 24 samples.

Results

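Cytosolic ribosomal protein genes were described in bulk RNA-seq of astrocytes sorted by flow cytometry from 4 regions of the mouse brain. They were taken by name as genes called Rpl or Rps followed by a number (with the suffixes a, x, y or l where present), together with Rplp0 to Rplp2 and Rpsa. The rule gave 84 of the 24394 genes in the table, 51 of the large ribosomal subunit and 33 of the small subunit. The ribosomal protein genes Fau, Gnb2l1 (Rack1) and Rpl36al fall outside the naming rule and are given separately. The libraries came from olfactory bulb, hippocampus, cortex and thalamus, each with 3 libraries labelled control (called WT here) and 3 labelled KO (mice with a conditional knockout of Nfix, which encodes the transcription factor nuclear factor I X). The Cre driver, the exons deleted, age and sex are not given in the sources used here, nor is it said whether each library of a group was a separate animal. The p-values therefore cover the spread among the libraries alone, which may be technical.

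The ribosome translates mRNA into protein. Its small subunit decodes the mRNA, and its large subunit joins amino acids and holds the tunnel through which the new chain leaves. Each subunit carries a single copy of most of its proteins, and ribosomal protein mRNAs are among the most abundant messages of nearly every cell. Many of these mRNAs begin with a cytosine followed by a stretch of pyrimidines, the 5′ terminal oligopyrimidine (TOP) tract, through which the mTOR kinase controls their translation. In astrocytes ribosomes also sit in fine processes, where some mRNAs are translated locally. Mammalian genomes hold many processed pseudogenes of ribosomal protein genes, and short reads from a gene and a near-identical copy cannot always be told apart.

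Libraries held 2517487 to 25616591 reads assigned to genes, the lowest value being that of thalamus KO 3, whose total rests on taking its smallest value as 1 read and which is not among the libraries used in count tests, and levels are normalized reads, in which the authors had scaled each library by 1 size factor. Cortex WT 3 and thalamus KO 3 stood apart, with 3871 and 2220 genes above 0 against 7509 to 11984 in the other 22 libraries, so main results that rest on them are given with and without them. Of 12 astrocyte markers 10 and 8 were above 0 there (Gfap and Aldh1l1 were listed at 0 in both, Aqp4 and Gjb6 in thalamus KO 3), with summed levels of 18287 and 12937 CPM (counts scaled to a common library total) against 36709 to 97089 CPM elsewhere, where all 12 were above 0. The 13 oligodendrocyte markers (8 and 7 of them above 0) summed to 51082 and 76171 CPM in these 2 libraries and to 1557 to 29273 CPM in the others. The 11 microglia markers (7 and 4 above 0) summed to 3814 and 3540 CPM there and to 28.3 to 1976 CPM in the others. For 12 neuron markers (9 and 5 above 0) the sums were 1933 and 718 CPM, against 6.60 to 891 CPM. The part of these markers in the results was not tested. Hippocampus WT 2 and 3 were unusually alike: among 8364 genes that reached 50 normalized reads in one of them, 0 were listed at 0 in its partner, whereas each of the other 275 pairs of libraries had at least 850 such genes. Nfix, the targeted gene, had a higher mean in the libraries labelled KO in every region (olfactory bulb 2448 ± 96.8 in WT and 4693 ± 1347 in KO, hippocampus 4512 ± 608 and 6730 ± 1253, cortex 3786 ± 557 and 5026 ± 748, thalamus 3137 ± 440 and 6947 ± 4403 normalized reads, SD, n = 3 each). Every KO library lay above every WT library for Nfix in olfactory bulb and hippocampus, as for 4.37% and 5.61% of all genes tested. Nfix passed in no region (limma, smallest adjusted p = 0.854). A value per gene does not separate reads of deleted exons from those of the rest of the gene. It therefore cannot show whether exons were deleted, and higher values in KO do not bear out the knockout labels. WT and KO below mean the control and KO labels.

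Of the 84 genes, 76 were detected in at least 20 of the 24 libraries and 8 in 6 or fewer. The 8 were Rps27 and Rps4l (6 libraries each), Rpl30 (4), Rpl34 (3), Rpl3l (1), and Rpl10l, Rpl26 and Rpl39l (0). Rpl10l, Rpl39l and Rpl3l are paralogs of Rpl10, Rpl39 and Rpl3 known from testis, male germ cells and striated muscle respectively. Rps27, Rpl26, Rpl30 and Rpl34, by contrast, encode core proteins of the ribosome, and their levels here were at or near 0. These 4 genes share long stretches of their mRNA with other annotated genes, and a stretch of 50 coding bases (capitals, with flanking bases of the same gene in lower case) is shown for each because any read that falls within it matches several genes equally.
Rpl26: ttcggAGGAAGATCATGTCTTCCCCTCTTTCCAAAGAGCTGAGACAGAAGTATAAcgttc
Rpl30: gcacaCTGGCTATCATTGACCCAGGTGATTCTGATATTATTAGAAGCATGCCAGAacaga
Rpl34: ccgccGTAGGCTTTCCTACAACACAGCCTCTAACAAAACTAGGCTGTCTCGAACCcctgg
Rps27: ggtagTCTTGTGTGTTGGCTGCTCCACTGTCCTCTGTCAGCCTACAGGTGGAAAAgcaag

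The stretch shown was present in the transcripts of 6 other genes for Rpl26, 13 for Rpl30, 9 for Rpl34 and 5 for Rps27 (GENCODE M21, GRCm38). Over the whole of its first-numbered transcript, Rps27 shared 98.6% of its 50-base windows with other genes, and a single gene, Rps27rt, held 292 of its 296 windows. Rpl30 shared 76.4% of its windows, Rpl26 71.3% and Rpl34 37.9%. The median over the 84 genes was 56.0%, and 47 genes shared over 50%. How the authors' counting treated reads with several matches is not given in the sources used here, and its part in these levels was not tested. Rps27 lies at chr3:90212522-90213651, Rpl34 at chr3:130726831-130730398 and Rpl30 at chr15:34440505-34443640 on the minus strand, and Rpl26 at chr11:68901583-68906989 on the plus strand. In the deepest library, hippocampus WT 2, 3 reads correspond to 0.117 CPM, so a gene listed at 0 there could still lie below that floor, which covers counting error only.

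The few reads that were assigned to these genes were concentrated in single libraries. Rps27 reached 20.7 normalized reads in hippocampus WT 3 (31 reads), 8.99 in cortex WT 1 and at most 3.35 in 4 other libraries. Rpl34 reached 48.4 in cortex KO 1 from 71 reads, and Rpl30 reached 183 in thalamus KO 2 from 141 reads. Rps4l, a single-exon paralog of the X-linked Rps4x, was above 0 in 6 of 12 WT libraries and 0 of 12 KO libraries. Its levels were 28.0 and 19.2 in olfactory bulb WT 2 and 3 and 34.3 and 10.7 in hippocampus WT 2 and 3, the unusually alike libraries. It stood at 51.5 in cortex WT 1 and at 0.82, from 1 read, in thalamus WT 2. The share of all genes above 0 in WT libraries alone was not counted. The other 6 WT libraries were at 0, so WT and KO overlapped, and its KO minus WT difference averaged over regions did not pass (log2 difference -0.78, SE 0.41, limma, adjusted p = 0.971).

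More of the cytosolic than of the mitochondrial ribosomal protein genes were above 0 in the 2 sparse libraries. Between 75 and 79 of the 84 genes were above 0 in each of the 22 other libraries (44 to 46 of the large subunit and 30 to 33 of the small), 71 in cortex WT 3 and 63 in thalamus KO 3. The 77 mitochondrial ribosomal protein genes, whose products build the separate ribosome of mitochondria, numbered 41 to 76 above 0 in the 22 libraries but 11 in cortex WT 3 and 2 in thalamus KO 3. In all 24 libraries 60 cytosolic genes (71.4%) were above 0, of the large subunit 38 and of the small subunit 22, against 1 of the 77 mitochondrial genes (1.30%) and 952 of all 24394 genes (3.90%). Of the 12527 genes whose mean reached 10 normalized reads it was 7.60%. Genes were not matched on level here, and detection depends on level. The median over the 84 genes of their median levels was 1112 normalized reads. A further 15 cytosolic genes were above 0 in 22 or 23 libraries, among them Rps6 (the substrate of S6 kinase), Rps4x, Rpl5 (a partner of Rpl11 and the 5S rRNA), Rpl23, Rpl35 and Rps14, and of these 15 all but Rps7 were at 0 only in cortex WT 3 or thalamus KO 3. Rps7 was at 0 in olfactory bulb KO 1 and thalamus KO 3. Rpl7l1, a paralog of Rpl7, was above 0 in 20 libraries with a median of 47.4 normalized reads and a highest value of 972.

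**Figure D1:**
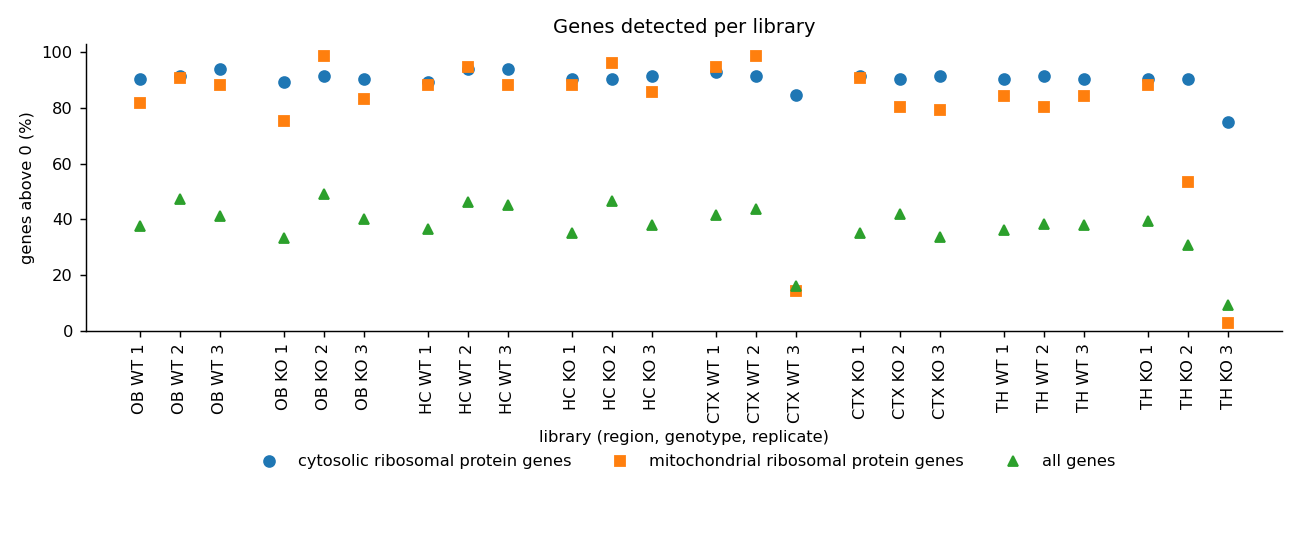
Percent of genes above 0 (vertical axis) in each of 24 libraries (horizontal axis) for the 84 cytosolic ribosomal protein genes (circles), 77 mitochondrial ribosomal protein genes (squares) and all 24394 genes (triangles). Cortex WT 3 and thalamus KO 3 fall to 11 and 2 mitochondrial genes but keep 71 and 63 cytosolic genes.

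The start sites are shown for 5 ribosomal protein genes with a pyrimidine run at the annotated start and for Rps3a1, which has none near it. Each line gives 15 bases before and 15 from the annotated RefSeq start on (GRCm38.p6, the gene's own strand), with the longest run of a C followed by at least 4 more C or T in capitals.
Rpl35: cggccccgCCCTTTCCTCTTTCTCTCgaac
Rpl38: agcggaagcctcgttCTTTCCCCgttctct
Rpl15: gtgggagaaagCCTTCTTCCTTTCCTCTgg
Rps6: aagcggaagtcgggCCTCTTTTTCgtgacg
Rps18: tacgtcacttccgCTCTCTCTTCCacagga
Rps3a1: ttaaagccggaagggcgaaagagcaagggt

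These windows lie at chr2:39005117-39005146 for Rpl35, chr14:18270972-18271001 for Rpl15, chr4:86857353-86857382 for Rps6, chr17:33955651-33955680 for Rps18 and chr3:86142654-86142683 for Rps3a1, all on the minus strand, and at chr11:114668565-114668594 on the plus strand for Rpl38. Promoter sequence was matched for 63 of the 84 genes. A run in these 30 bases, searched on the gene's strand only, was present in 42 of the 63 (66.7%, the same in both subunits), against 40.3% of 27025 genes with a promoter and 47.8% of 69 mitochondrial ribosomal protein genes. The annotated first base itself was a C followed by at least 4 C or T in 13 of 63 (20.6%), against 3.01% of all genes and 0 of the 69. A missing run says only that these letters are not in this window.

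Per kilobase of the first-numbered transcript, the highest mean levels of the small subunit belonged to Rps29, Rps24 and Rps15, and those of the large subunit to Rpl39, Rpl13 and Rpl23a. Rps29, a zinc-binding protein of the small subunit head, stood first at a median of 16943 normalized reads per kilobase (lowest 8731, highest 175305). Rps24 had a median of 7316, Rps15 of 6298, Rpl39, which lines the exit tunnel, of 6272, Rpl23a, which lies at the tunnel's end, of 5708, and Rpl13 of 5703. The highest value of Rps29 was that of cortex WT 3 and its next highest, 66057, that of thalamus KO 3, whereas the other 22 libraries reached at most 35102. Rpl39 had its highest value, 46833, in thalamus KO 3, and Rps24 its highest, 30588, in cortex WT 3. Of the windows of Rps29, 35.8% are shared with 7 other genes, and reads in them cannot be told apart from those of these copies.

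Paralog pairs differed widely in level per kilobase. Rpl22 had a median of 3209 normalized reads per kilobase and Rpl22l1 of 789. For Rpl7 the median was 953 and for Rpl7l1 18.2, for Rps4x 1175 and for Rps4l 0, and for Rpl10 2992, Rpl39 6272 and Rpl3 1860 against 0 for Rpl10l, Rpl39l and Rpl3l. Rps27 and Rps27l went the other way from the rest, with a median of 0 for Rps27 and 570 for Rps27l. Rpl22l1 varied more between libraries of one group than most of these genes (SD 2.45 on the log2 scale), from 2.51 to 1891 normalized reads.

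Within groups, ribosomal protein genes had a smaller median SD than genes as a whole. Over the 22 libraries without cortex WT 3 and thalamus KO 3, the median SD within a group was 0.80 on the log2(normalized reads + 10) scale, 0.76 for the large and 0.90 for the small subunit. It was 1.80 for mitochondrial ribosomal protein genes and 1.66 for all 12527 genes whose mean reached 10. Genes were not matched on level in this comparison. The least variable were Rps25 (0.39), Rpl31 (0.40) and Rps29 (0.42), and the most variable of the detected genes were Rpl7l1 (2.52), Rpl22l1 (2.45) and Rpl36a (1.78). These values were picked by rank after they were seen.

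**Figure D2:**
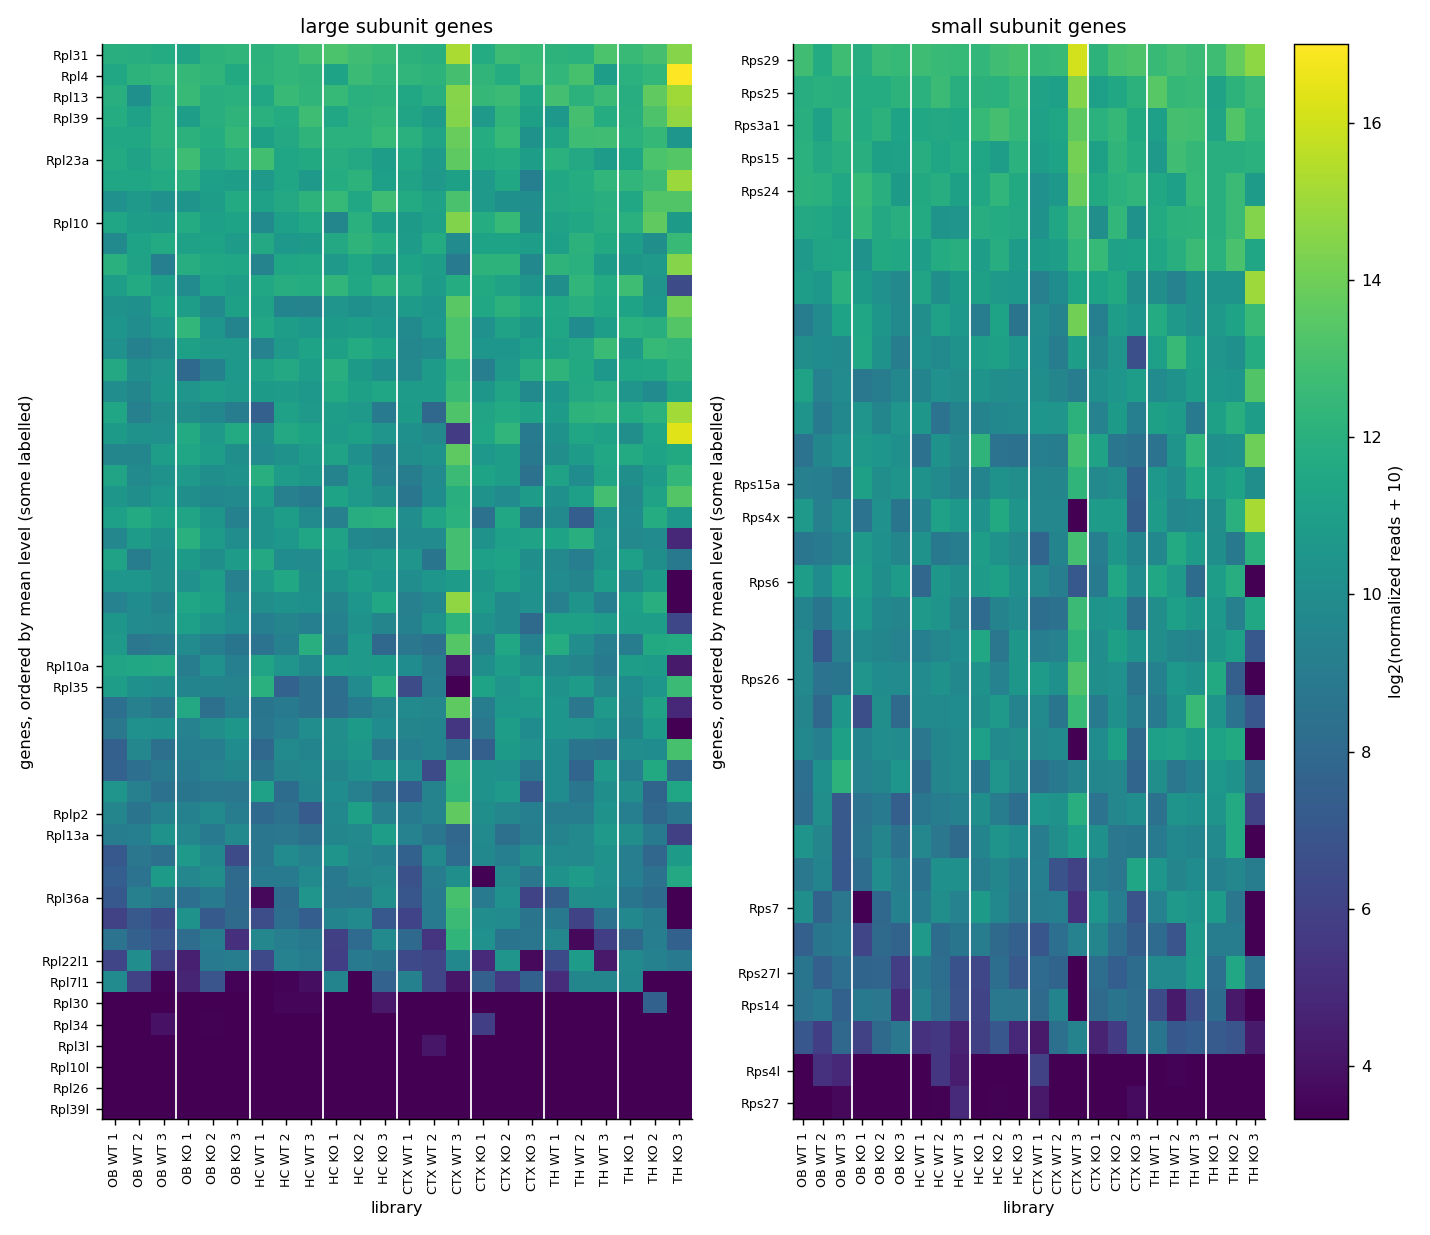
Level of each ribosomal protein gene (rows, ordered by mean, large subunit left and small subunit right) in each library (columns, OB olfactory bulb, HC hippocampus, CTX cortex, TH thalamus) as log2(normalized reads + 10), with some rows labelled by gene. The bottom rows hold the 8 genes above 0 in 6 or fewer libraries, and cortex WT 3 and thalamus KO 3 show both the highest and the lowest values of many genes.

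Together the 84 genes took 0.926 to 3.20% of the reads of a library. In the olfactory bulb the share was 1.14, 0.973 and 1.25% in WT 1 to 3 and 1.20, 1.19 and 1.09% in KO 1 to 3, so the groups overlapped. In the hippocampus it was 1.18, 1.25 and 1.23% in WT and 1.43, 1.54 and 1.38% in KO, where every KO library lay above every WT library. In the cortex it was 0.926, 0.976 and 3.20% in WT and 1.23, 1.81 and 0.988% in KO, and in the thalamus 1.37, 1.47 and 1.90% in WT and 1.50, 2.04 and 2.87% in KO, and the groups overlapped in both. Without cortex WT 3 the 3 cortex KO libraries lay above the other 2 WT libraries, by as little as 0.988 against 0.976%. The 3 libraries with the fewest detected genes (thalamus KO 3, cortex WT 3 and thalamus KO 2) had the 3 highest shares. Those ranked 4 to 6 by fewest genes (olfactory bulb KO 1, cortex KO 3 and cortex KO 1) ranked 16, 21 and 14 in share. Counting intervals (95%, Wilson), which cover counting error only, were 1.25 to 1.26% for the highest hippocampus WT library and 1.38 to 1.39% for the lowest hippocampus KO library.

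**Figure D3:**
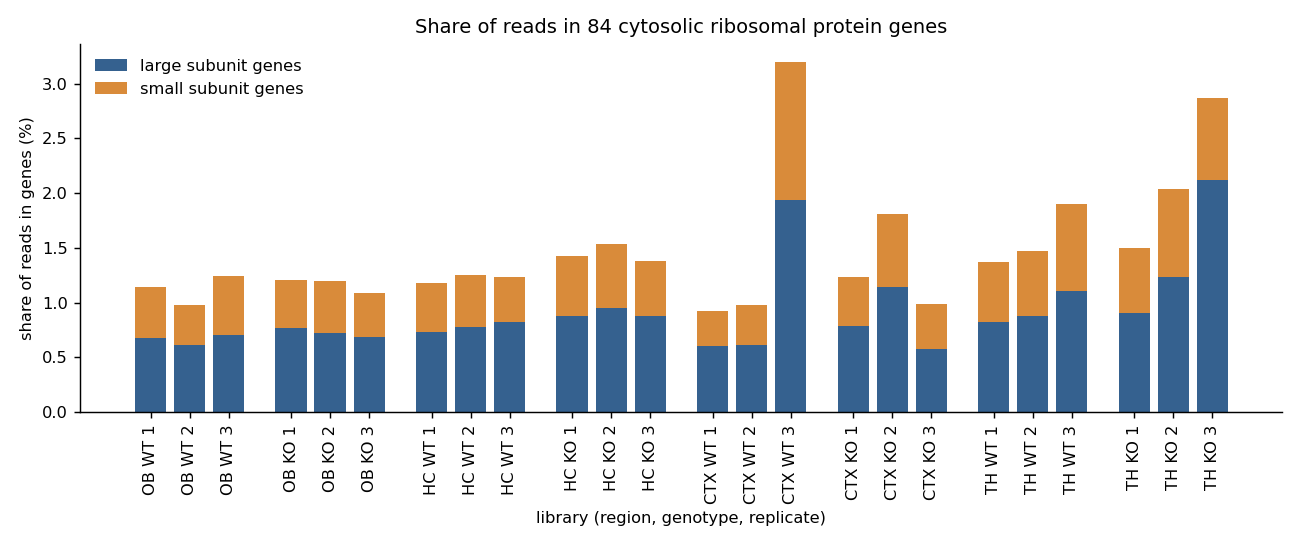
Share of reads (vertical axis, percent) that fell on ribosomal protein genes of the large (lower part of each bar) and small subunit (upper part) in each library (horizontal axis). The 3 hippocampus KO libraries (1.38 to 1.54%) stand above the 3 hippocampus WT libraries (1.18 to 1.25%), and the tallest bars are cortex WT 3 and thalamus KO 3.

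The hippocampus share differed by 0.229 percentage points between the mean of KO (1.45 ± 0.0798%, SD, n = 3) and of WT (1.22 ± 0.0391%). No test is given for a sum over these genes. Leaving out each library in turn gave 0.185 to 0.263 points, averaging WT 2 and 3 gave 0.240, and leaving the 45S ribosomal RNA precursor gene Rn45s out of the total gave 0.233. Rn45s itself took 11.2 to 11.5% of the reads in hippocampus WT and 9.25 to 10.7% in KO. The 12 astrocyte markers, all above 0, summed to 83124 to 90159 CPM in WT and 54183 to 97089 CPM in KO, and the 13 oligodendrocyte markers, of which 8 to 12 were above 0, to 3194 to 5615 and 1557 to 7651 CPM. The 7 choroid plexus and ependymal markers, of which 1 to 5 were above 0, summed to 1224 to 12286 CPM in WT and to 38.4, 54894 and 8447 CPM in KO 1 to 3. The 11 microglia markers summed to 352 to 918 CPM in WT and to 28.3, 1976 and 316 CPM in KO 1 to 3. Of the hippocampus libraries KO 2 had the lowest astrocyte sum (54183 CPM) and the highest oligodendrocyte sum (7651 CPM). Its choroid plexus and ependymal sum and its microglia sum were also the highest. KO 2 had the highest share as well, and without it the difference in share was 0.185 points. KO 1 had the highest astrocyte sum (97089 CPM) and the lowest oligodendrocyte sum (1557 CPM) of the hippocampus libraries. Its choroid plexus and ependymal sum and its microglia sum were the lowest, and its share of 1.43% also lay above every WT library. The part of these marker lists in the share was not tested. In bulk libraries, fewer cells of a type and less RNA per cell cannot be told apart. Of the 84 genes 53 took a larger mean share of reads in KO and 26 a smaller one. These counts describe the same reads as the summed share, and the part of all genes with a larger mean share in KO was not counted. Rps3a1 added 0.0347 points, Rpl21 0.0187, Rpl31 0.0179, Rpl15 0.0163 and Rpl7a 0.0143, which came to 0.102 of the 0.229 points.

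The 2 subunits kept a similar balance in most libraries. Reads on large subunit genes outnumbered those on small subunit genes 1.31 to 1.99 times in 23 libraries. The ratio was 2.85 in thalamus KO 3, where Rpl4 alone, at 153425 normalized reads, took 21.5% of the reads on ribosomal protein genes. In cortex WT 3 Rps29 took 11.8%. In each of the other 22 libraries the leading gene (most often Rps29) took 4.56 to 8.53%.

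No ribosomal protein gene passed in any comparison of KO with WT. Differences are log2(normalized reads + 10), KO minus WT, tested with limma over all genes with at least 10 normalized reads in at least 3 libraries, and called at a Benjamini-Hochberg adjusted p under 0.05. In the olfactory bulb 0 of 76 tested genes passed, against 0% of all 9385 genes tested, and the smallest adjusted p was 1.00. For the hippocampus the count was 0 of 75 (0.0109% of 9213 genes), for the cortex 0 of 76 (0% of 8376), for the thalamus 0 of 76 (0% of 7675), and for the average over regions 0 of 77 (0% of 12477). At an unadjusted p under 0.05 olfactory bulb had 1 of these genes (4.01% of all genes), hippocampus 2 (6.27%), cortex 1 (2.44%), thalamus 0 (3.82%) and the average 0 (4.86%). Without the 2 libraries that stood apart, the cortex had 3 (3.41% of all genes), the thalamus 0 (4.60%) and the average 5 (6.42%). On the recovered reads, edgeR's quasi-likelihood test called 0 of these genes in the olfactory bulb (0% of all genes), 0 in the hippocampus (0%) and 0 in the cortex (0.0117%). DESeq2 called 0 of 76 in the olfactory bulb (1.61% of all genes), 1 of 77 in the hippocampus (Rpl7l1, against 4.97%) and 0 of 62 with an adjusted p in the cortex (1.21%). Rpl7l1 stood at 0, 0.789 and 4.00 normalized reads in hippocampus WT and at 721, 0 and 187 in KO, so the groups overlapped. Its log2 difference was 7.62 (DESeq2, SE 2.43, adjusted p = 0.0390). It was not in the limma test there, since it reached 10 normalized reads in fewer than 3 hippocampus libraries.

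The genes tested had each passed a filter on level. The 8 not tested in the olfactory bulb, cortex and thalamus were the 8 rarely detected ones, and in the hippocampus Rpl7l1 was also left out. The tested genes had a median standard error of 0.79 for the olfactory bulb, 0.75 for hippocampus, 1.43 for cortex, 1.88 for thalamus and 0.69 for the average. A 2-fold difference, 1 on the log2 scale, thus lay within 2 median standard errors in each with all libraries. Without cortex WT 3 and thalamus KO 3 the median standard error was 0.93 for cortex, 1.03 for thalamus and 0.43 for the average, and for the average alone a difference of 1 then exceeded 2 such errors. A p that misses the threshold does not show that levels were equal.

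The balance of differences above and below 0 was not the same in each region. The median of all genes tested is given beside that of these genes, but here and below genes were not matched on level. A gap between the 2 medians is therefore not shown to be particular to ribosomal protein genes. In the olfactory bulb 43 of 76 genes lay above 0 and 33 below, with a median of 0.09 (0.01 to 0.07 under the other scalings), against -0.04 for all genes. Leaving out 1 library gave medians of 0.06 to 0.25, and without KO 1 the ribosomal protein genes (0.08) lay below all genes (0.12). Large subunit genes had 29 of 45 above 0 (median 0.24) and small subunit genes 14 of 31 (median -0.08), a contrast between subunits that was not tested. The small subunit median lay above 0 without WT 1 (0.02), WT 2 (0.05), WT 3 (0.16) or KO 3 (0.10). In the hippocampus 53 of 75 lay above 0 and 22 below, 30 of 44 of the large subunit and 23 of 31 of the small. The hippocampus median was 0.25 (0.22 to 0.27 under the other scalings) against -0.16 for all genes (44.8% of them above 0), and both subunits had medians above 0 (0.31 and 0.19). Leaving out 1 library gave medians of 0.18 to 0.34 for these genes. The all-gene median was then -0.32 without WT 1, -0.01 without WT 2, -0.02 without WT 3 and -0.05 without KO 1. In the average over regions 46 of 77 lay above 0 (median 0.11, all genes -0.17), and 58 of 77 without cortex WT 3 and thalamus KO 3 (median 0.22, all genes -0.14). The median of the average was -0.01 without cortex WT 2 and -0.00204 without cortex KO 2 (38 of 77 above 0 in both), 0.25 without cortex WT 3, and 0.48 with upper-quartile factors (61 of 77).

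In the cortex and the thalamus the direction depended on single libraries and on the scaling. In the cortex 32 of 76 genes lay above 0 with all libraries (median -0.28, all genes 0.49). Without WT 3, 54 of 76 lay above 0 and the median was 0.40, with all genes at -0.29. The cortex median with all libraries was -0.01 on a common library total, 0.04 with TMM factors and -0.74 with upper-quartile factors, and without KO 3 it was 0.05. In the thalamus 40 of 76 lay above 0 (median 0.05, all genes -1.31), and without KO 3 43 of 76 (median 0.14, all genes -0.18). The thalamus median turned to -0.34 on a common library total and -0.41 with TMM factors and was 2.34 with upper-quartile factors. Without thalamus WT 1 it was -0.01, without WT 2 -0.10, without KO 1 -0.02 and without KO 2 -0.05.

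**Figure D4:**
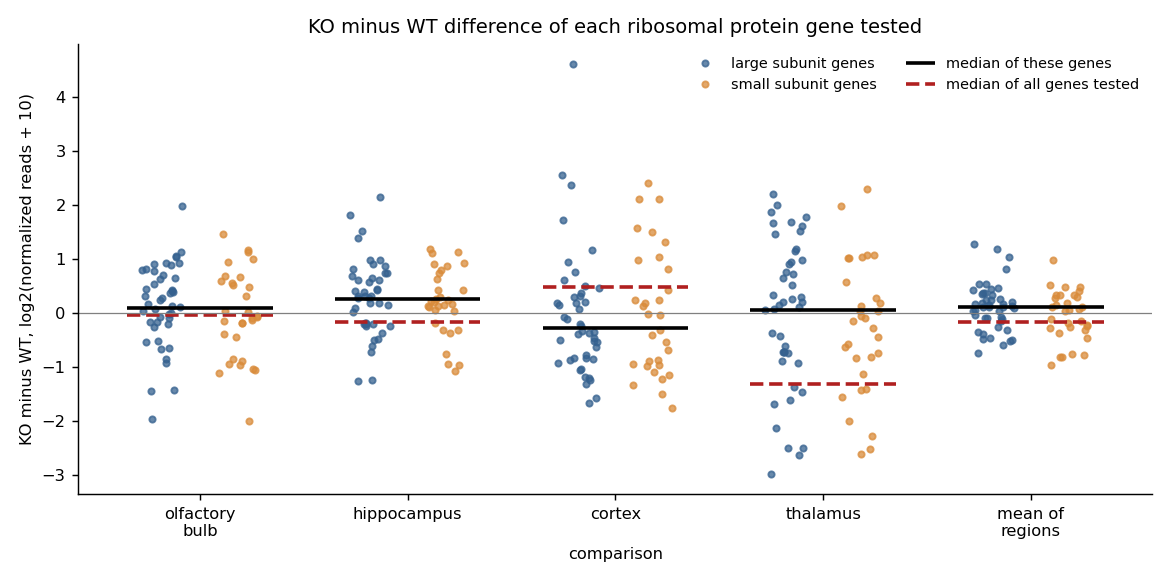
KO minus WT difference on the log2(normalized reads + 10) scale (vertical axis) of each ribosomal protein gene tested, by comparison (horizontal axis). Points are genes of the large (left of each pair) and small (right) subunit, the solid line is their median and the dashed line the median of all genes tested. The spread is wider in the cortex and the thalamus, where the all-gene medians are 0.49 and -1.31.

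In the olfactory bulb the smallest p belonged to Rpl10a, a protein of the flexible L1 stalk of the large subunit, at chr17:28328471-28331033 on the plus strand. It stood at 2524, 2968 and 3086 normalized reads in WT and 534, 1198 and 585 in KO, so every KO library lay below every WT library. The log2 difference was -1.97 (SE 0.70, limma, adjusted p = 1.00, the unadjusted p being under 0.05), and it did not pass in any alternative tried. Rpl36 stood at 3090, 1097 and 1413 in WT and 244, 633 and 1556 in KO (-1.42, SE 0.80). On the other side, Rps15a stood at 621, 572 and 402 in WT and 2167, 1059 and 1360 in KO (1.47, SE 0.85), without overlap. Rpl13 (0.81, SE 0.50) and Rpl23 (1.13, SE 0.77) followed. Every KO library lay above every WT library for 7 of 76 genes (Rpl8, Rpl13, Rpl29, Rplp1, Rps10, Rps15a and Rps26), against 4.37% of all genes tested, and below for 3 (Rpl10a, Rpl35 and Rpl38), against 4.69%.

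In the hippocampus the smallest p belonged to Rps3a1, a small subunit protein at the mRNA exit, which also contributed most to the larger share of reads. Rps3a1, at chr3:86137940-86142702 on the minus strand, stood at 2920, 2993 and 2928 in WT and 5804, 7990 and 5602 in KO. The WT libraries lay close together and all KO libraries above them (log2 difference 1.11, SE 0.45, limma, adjusted p = 0.698), and with WT 2 and 3 averaged the difference was 1.12. Rplp2, of the stalk that recruits elongation factors, stood at 242, 328 and 144 in WT and 840, 2146 and 608 in KO, again without overlap (2.14, SE 1.02, limma, adjusted p = 0.761). These 2 genes had an unadjusted p under 0.05. Rpl13a had 1.52 (SE 0.91), with 398, 418 and 320 in WT and 763, 842 and 2059 in KO. Below 0 were Rpl9 (-1.24, SE 0.68), Rps12 (-1.08, SE 0.84) and Rps20 (-0.95, SE 0.76), each with overlapping groups. Every KO library lay above every WT library for 5 of 75 genes (Rpl11, Rpl13a, Rplp2, Rps3a1 and Rps16), against 5.61% of all genes, and below for 0, against 6.52%.

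In the cortex the smallest p belonged to Rpl35, a protein beside the exit tunnel. It stood at 78.5, 575 and 0 in WT and 2394, 1416 and 2134 in KO, so the groups did not overlap (log2 difference 4.60, SE 2.15, limma, adjusted p = 0.996). Without WT 3, where it was listed at 0, the difference was 3.10 (limma, adjusted p = 0.997). Rpl35 lies at chr2:39001580-39005624 on the minus strand, and 66.2% of its merged exons overlap Arpc5l and Wdr38 on the opposite strand, so without knowledge of how strand was used its reads cannot be told apart from theirs. Rpl10a, at 999, 535 and 11.3 in WT and 1109, 1995 and 1061 in KO, had 2.56 (SE 2.01), or 0.85 without WT 3, and Rpl6 had 2.36 (SE 1.71), or 0.93 without WT 3. Below 0 were Rpl21 (-1.67, SE 1.12), Rps26, which contacts the mRNA near the exit (-1.76, SE 1.34), and Rps29 (-0.88, SE 0.65), and without WT 3 these were -1.13, -0.87 and 0.31. Rps29 thus turned sign without WT 3, where it reached 68369 normalized reads against 5446 and 5850 in the other WT libraries.

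Non-overlapping cortex groups were found for 3 genes with KO above WT (Rpl10a, Rpl35 and Rps27a, of 76, against 4.73% of all genes) and 2 with KO below (Rpl21 and Rps21, against 2.88%). Without WT 3, with 3 KO and 2 WT libraries, these counts were 15 of 76 above (6.66% of all genes) and 2 below (12.4%). In the thalamus 2 genes had KO above WT (against 1.21% of all genes) and 1 below (Rpl19, an intersubunit bridge protein, against 9.97%). Without thalamus KO 3 the counts were 10 above (8.85%) and 9 below (11.7%).

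In the thalamus the genes with the smallest p rested on KO 3. Rpl4, which lines the exit tunnel, stood at 5335, 8212 and 1993 in WT and 4328, 5321 and 153425 in KO (1.78, SE 0.98, limma, adjusted p = 0.859), and the difference was 0.11 without KO 3. Rps4x stood at 1881, 798 and 898 in WT and 1061, 4126 and 37500 in KO (2.30, SE 1.58), or 0.92 without KO 3. Rpl39 had 1.51 (SE 1.12), or 0.76. Below 0 were Rpl19 (-2.98, SE 2.31), Rpl7l1 (-2.63, SE 2.33) and Rps26 (-2.61, SE 2.45), which were -1.32, -1.57 and -0.53 without KO 3.

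Averaged over the regions, the smallest p values above 0 belonged to Rpl6 (1.18, SE 0.69), Rpl35 (1.27, SE 0.74) and Rpl12 (1.04, SE 0.72), and below 0 to Rps4l (given above), Rps9 (-0.96, SE 0.73) and Rpl19 (-0.74, SE 0.69). Without cortex WT 3 and thalamus KO 3 the differences of the first 3 were 0.36, 0.69 and 0.70, and those of Rps9 and Rpl19 -0.48 and -0.08. Rps4l was then at -0.89.

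Of the 84 genes, looked over in all 4 regions, Rpl10a and Rpl35 had non-overlapping groups in opposite directions, in olfactory bulb and cortex. They were picked after this was seen, and the share of all genes with such a pattern was not counted. Every KO library lay below every WT library for 4.69% of all genes tested in the olfactory bulb, and above for 4.73% in the cortex. In the olfactory bulb Rpl35 stood at 2057, 1157 and 1023 in WT and 700, 715 and 687 in KO, below WT, whereas in the cortex both genes stood above WT. The test of whether the KO minus WT difference varied between the 4 regions did not pass for Rpl10a or Rpl35 (limma F test, adjusted p = 0.939 for both), nor for any other of 77 genes (0% of 12477 genes passed). At an unadjusted p under 0.05 there were 0 of the 77 and 4.58% of all genes, and Rpl7l1 and Rpl14 were the others among the 4 genes with the smallest p. The regional differences of Rpl10a spanned 4.53 on the log2 scale, and those of Rpl35 5.53. Without cortex WT 3 and thalamus KO 3 these spans were 3.43 and 4.03, with an unadjusted p under 0.05 and an adjusted p = 0.931 for both.

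**Figure D5:**
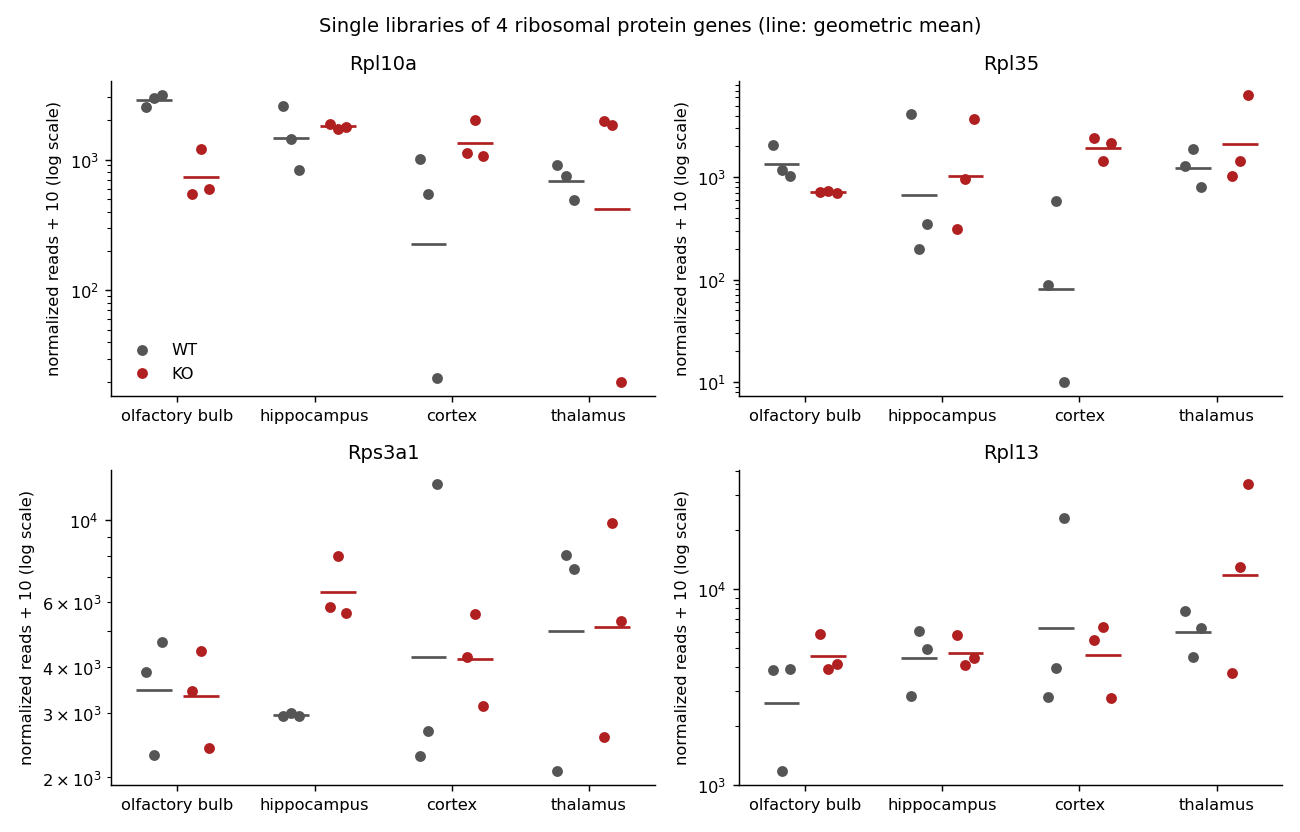
Normalized reads + 10 (vertical axis, log scale) of Rpl10a, Rpl35, Rps3a1 and Rpl13 in single libraries by region (horizontal axis), WT grey and KO red, lines at geometric means. Rpl10a is lower in all 3 olfactory bulb KO libraries and Rps3a1 higher in all 3 hippocampus KO libraries than in their WT libraries, and the lowest points of Rpl10a are cortex WT 3 and thalamus KO 3.

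Among WT libraries 0 of 77 ribosomal protein genes passed a test between regions (limma F test over 4 regions, smallest adjusted p = 0.678), against 0.252% of 11105 genes. The mean share of reads was 1.12 ± 0.138% in olfactory bulb, 1.22 ± 0.0391% in hippocampus, 1.58 ± 0.284% in thalamus and 1.70 ± 1.30% in cortex (SD, n = 3), or 0.951% in cortex without WT 3. The order of the regions thus turned on cortex WT 3. Rpl35 (range of region means 4.08 on the log2 scale), Rpl10a (3.65) and Rpl7l1 (4.55) had the smallest p. The first 2 had an unadjusted p under 0.05, which is 2.60% of these genes against 6.79% of all genes. Without cortex WT 3 the ranges were 2.57 for Rpl35, 2.05 for Rpl10a and 4.55 for Rpl7l1. In WT Rpl10a was highest in the olfactory bulb (2524 to 3086), followed by the hippocampus (824 to 2550), and stood at 480 to 891 in the thalamus. Over both genotypes 0 of 77 passed between regions (1.4% of 12477 genes), led by Rpl24 (range 2.42, limma, adjusted p = 0.480), Rps4x (2.67), Rps27l (2.62) and Rps14 (2.52). Rpl24 was the 1 gene of the 77 with an unadjusted p under 0.05, against 10.3% of all genes. Without the 2 libraries that stood apart these were 1.88, 0.99, 2.46 and 2.51.

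Fau, Gnb2l1 and Rpl36al, outside the naming rule, were detected widely and did not pass either. Fau, which encodes a small subunit protein fused to a ubiquitin-like protein, and Gnb2l1, a small subunit scaffold, were above 0 in 24 libraries and Rpl36al in 22. Their log2 differences averaged over regions were 0.08 (SE 0.74) for Fau, -0.30 (SE 0.78) for Gnb2l1 and 0.29 (SE 0.82) for Rpl36al. These 3 lay below 0 in the olfactory bulb.

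Other genes of the translation machinery gave no call with limma in any KO comparison. On the recovered reads of the hippocampus, DESeq2 called 1 of 14 genes of mTOR control and 1 of 23 of ribosome biogenesis. It also called 5 of 72 mitochondrial ribosomal protein genes there, against 4.97% of all genes. For the cortex it called 1 of 17 genes of ribosome biogenesis (1.21% of all genes), and for the olfactory bulb 0 (1.61%). EdgeR called 0 of these lists in these 3 regions. A list of other genes taken as having TOP mRNAs held translation factors and genes such as Npm1 and Tpt1. In the scan of start sites 7 of its 14 genes with promoter sequence had a run, and 2 had it at the annotated start. Of its tested genes 8 of 19 lay above 0 in the olfactory bulb (median -0.18) and 12 of 19 in the hippocampus (0.31). The counts were 14 of 19 in the cortex (1.27), 7 of 19 in the thalamus (-1.96) and 13 of 20 in the average (0.17). Genes of the mTOR and Larp1 control of TOP mRNAs had 6 of 12 above 0 in the olfactory bulb (median -0.01), 4 of 13 in the hippocampus (-0.47), 10 of 14 in the cortex (0.68), 3 of 12 in the thalamus (-1.31) and 7 of 15 in the average (-0.19). Ribosome biogenesis genes had 9 of 25 above 0 in the olfactory bulb (median -0.75), 12 of 25 in the hippocampus (-0.14), 11 of 21 in the cortex (0.12), 8 of 18 in the thalamus (-0.13) and 9 of 33 in the average (-0.35). Mitochondrial ribosomal protein genes had 36 of 68 above 0 in the olfactory bulb (median 0.07), 32 of 67 in the hippocampus (-0.27), 50 of 68 in the cortex (0.79), 8 of 57 in the thalamus (-1.47) and 39 of 77 in the average (0.03). The medians of all genes in these comparisons, not matched on level, were -0.04, -0.16, 0.49, -1.31 and -0.17.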

How the data were processed

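RNA of sorted astrocytes was made into libraries from 10 ng of RNA, per the labels' protocols. Tools named, per the submitters' processing notes, were the build mm10 and STAR 2.5.0a, R 3.5.2, DESeq2 1.20.0, MultiQC 0.9 and FastQC 0.10.1. The counting tool, annotation and use of strand are not given in the sources used here. The deposited signal values are read counts that the authors divided by 1 size factor per library, as the values show: 100% are whole multiples of the smallest value within 0.001. Reads were recovered in 22 libraries for the count tests. Thalamus WT 1 and KO 3, where 1 read was worth 0.993 and 9.90, were kept out of them. Of 24421 entries, 27 named as dates were left out.

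Limma 3.58.1 (trend, robust) was run on log2(value + 10) over all genes with at least 10 in 3 libraries, with Benjamini-Hochberg adjustment. A fold change on this scale understates the change of low genes. Alternatives were edgeR 4.0.16, DESeq2 1.42.0, other scalings, pseudocounts and filters, and leaving out each library. The KO against WT tests by these 3 tools were first run on simulated data. These were made for the olfactory bulb and hippocampus alone, with the same preset spread for all genes. They therefore do not show how the tests behave at the spread of the real libraries, or in the cortex and thalamus. The genes named were, per comparison, the 3 above and 3 below 0 with the smallest p, the 4 with the smallest p in F tests, the highest levels per kilobase, the rarest and the paralog pairs. The members and lists were chosen with earlier results of these data known. Some genes are not reported here.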

Additional observations from a re-analysis of the deposited data

How the results depend on the processing

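In 183 repeats of the tests under 36 other settings, a ribosomal protein gene passed in 1, Rpl7l1 in the hippocampus by DESeq2 (1 gene called). Numbers of all genes called moved most between tools. DESeq2 called 156 genes in the olfactory bulb, 510 in the hippocampus and 99 in the cortex, and edgeR 0, 0 and 1. In the hippocampus a pseudocount of 1 or no filter called 0 genes and a pseudocount of 100 called 3, and the interaction called 9 genes with no filter. With hippocampus WT 2 and 3 averaged, 18 genes passed between WT regions. The thalamus median of the ribosomal protein genes was -0.34 on a common library total, -0.41 with TMM factors and 2.34 with upper-quartile factors, and the cause was not tested; these factors shifted the all-gene median from -1.31 to -1.34, -1.35 and -0.96. Rps29 in the cortex reversed to 0.31 without WT 3 and lay between -1.51 and 0.31 over the libraries left out. Without cortex WT 3 and thalamus KO 3 together, 356 genes passed between regions over both genotypes. The hippocampus share difference was 0.340 points with the 100 most abundant other genes out of the total. Leaving out 1 library gave 0 to 2 calls over all genes in the olfactory bulb, 1 to 7 in the hippocampus, 0 to 1 in the thalamus, 14 to 140 between WT regions and 112 to 217 between regions over both genotypes. It gave medians of -0.80 to 0.40 in the cortex and cortex share differences of -0.746 to 0.392 points (0.188 to 0.872 in the thalamus). Replicate numbers did not pair the libraries (correlations of same-numbered deviations -0.07 to 0.08). With the number as a replicate block the hippocampus gave 3 calls over all genes, and none of the ribosomal protein genes passed in any comparison. The block shared across regions was chosen after seeing the data. In thalamus KO 3, the library with the fewest reads, 3 reads correspond to 1.19 CPM.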
